A study of Drosophila melanogaster with 3 samples.

Results

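Pseudouridylation guide snoRNAs were examined among the RNAs contacted by FMRP, the fly fragile X protein, in adult Drosophila melanogaster. The members were all names on the authors' target list that begin with snoRNA:Psi, 43 of the 1829 names on that list. Enhanced CLIP, in which ultraviolet light links a protein to RNA and the linked RNA is recovered with the protein and sequenced, was applied to whole flies, with 100 males and 100 females ground for each sample. The series has 2 FMRP UV libraries, immunoprecipitated on FLAG beads and labelled intestinal progenitor cells, and 1 FMRP smInput library, a size-matched input labelled all cells. The labels name no genotype, no driver and no tag beyond the FLAG beads. The deposited values are 1 list of 60497 single-base sites, each with a strand and the authors' score, and the list of target names. Neither list gives a value for each library, so the depth behind a site is not known, nothing could be tested between immunoprecipitate and input, and the comparisons that follow are descriptions. The labelled cell type could not be set against its marker genes, since no expression levels were used.

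H/ACA snoRNAs are small nucleolar RNAs that fold into paired hairpins joined by a hinge that carries the H box, with an ACA triplet near the 3′ end. A loop within a hairpin base-pairs with ribosomal RNA and places a chosen uridine in the active site of the pseudouridine synthase dyskerin, called Nop60B in flies. The name of each fly guide gives the ribosomal RNA and the base it is predicted to direct, so Psi28S-3186 is assigned to base 3186 of 28S rRNA. Most snoRNAs are cut out of introns of other genes, and several copies, marked by a letter, can be assigned to the same base. The sequences themselves were not used here, so the boxes and the guide loops were not located, and the class rests on the names.

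The members spanned a narrow range of size, with a median of 141 nt and extremes of 130 nt and 268 nt. Chromosome X held 12 of them, 3R held 11, 2R held 9, 3L held 6 and 2L held 5. Together they carried 508 sites, or 0.840% of all sites, in 6283 nt of gene. Each of the 43 had sites, and in each all sites lay on a single strand. Positions are those of the authors' site list, counted from 1, and that list names no genome build. The gene table used here gives neither strand nor exons, so the strand of the sites was taken as that of the RNA. Mitochondrial genes, whose strands are known, bear on this: sites lay on the known strand in 171 of 174 cases for plus-strand genes and in 71 of 71 cases for minus-strand genes. In each of the 9 host genes with several members, all members read the same way.

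Site number differed widely between members. The median was 11 sites, with quartiles of 9 and 15, and the range ran from 3 to 25. Psi18S-110 and Psi28S-3436b led with 25 sites each. Psi18S-1389a followed with 22, Psi28S-3186 with 20, Psi28S-1135f with 18, and Psi18S-176, Psi28S-2566 and Psi28S-2622 with 17 each. At the low end Psi18S-1854c, Psi18S-525b and Psi18S-525h had 3 sites each. Neighbouring bases were often both listed, so that the 508 sites formed 223 unbroken runs, with a median of 5 runs per snoRNA. The longest run, 11 bases, lay in Psi28S-1135f.

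Scores of these sites stood high within the list, although the score has no stated unit. The median over all 60497 sites was 2.78 and the upper quartile 6.39. Of the member sites, 403 (79.3%) reached that median and 293 (57.7%) reached that quartile. The median score reached the median of all sites in 38 of the 43 members (88.4%), in 24 of 27 methylation guide targets (88.9%) and in 44.4% of the 1814 target genes with a site in their span. The highest score reached the upper quartile in 93.0% of members, in 92.6% of methylation guide targets and in 79.1% of those target genes. The share in members was thus near that of methylation guides, the C/D snoRNAs that direct ribose methylation. Targets with snoRNA:Or-CD names, which give no rRNA base, were grouped with them here. Psi28S-3186 held the highest score of any member, 46.8, and Psi28S-1135f the next, 37.1. The members whose highest score stayed below the upper quartile were Psi28S-1192d at 5.82, Psi18S-1854b at 2.89 and Psi18S-525b at 1.19.

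**Figure D1:**
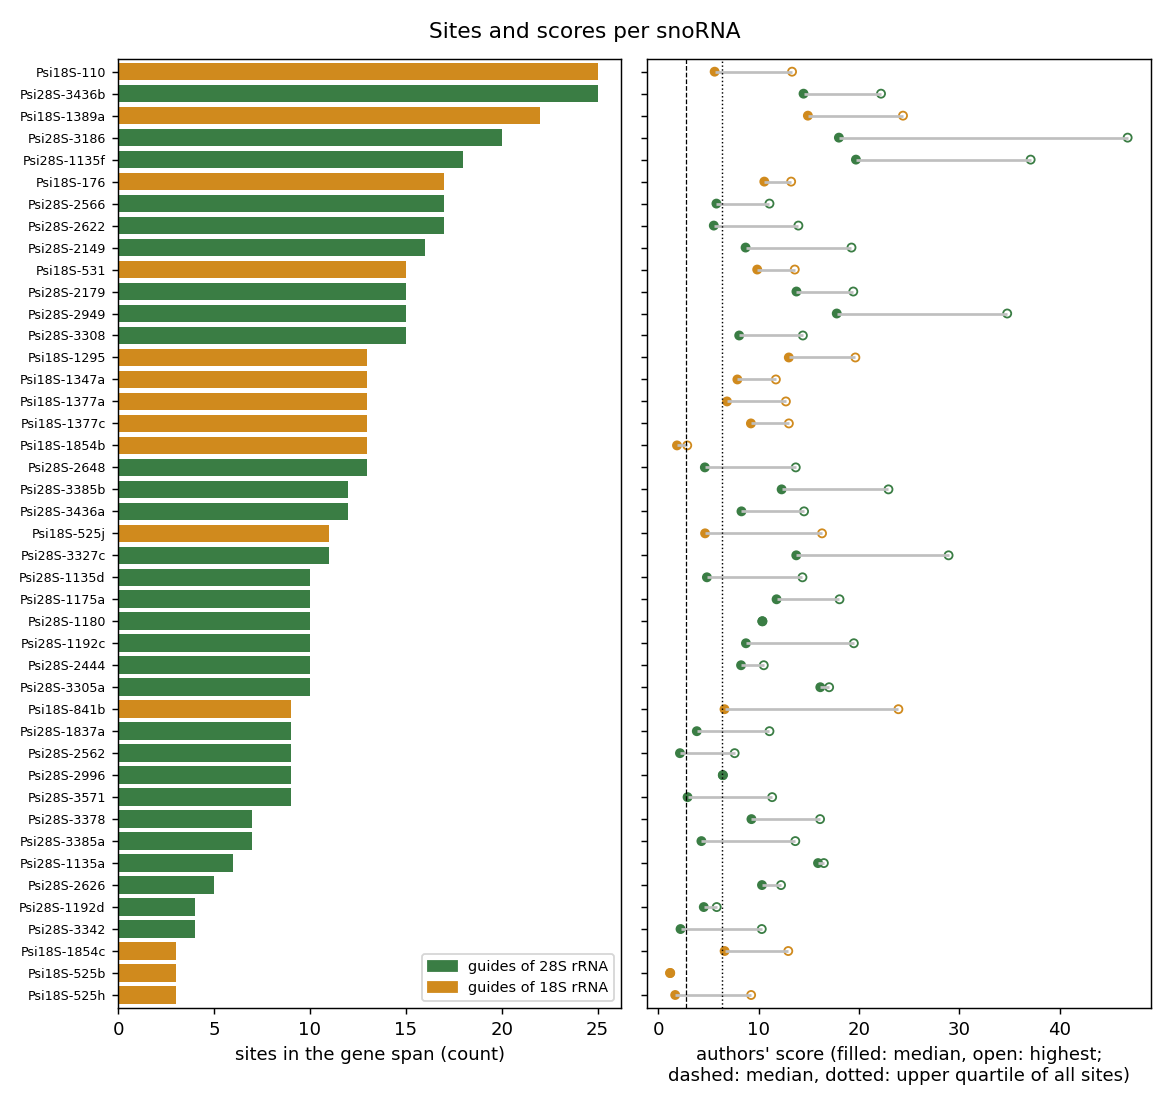
Number of sites in the gene span (left, bars) and the authors' score (right, filled circles for the median and open circles for the highest site) for each of the 43 snoRNAs, coloured by the guided rRNA. The dashed and dotted lines mark the median, 2.78, and the upper quartile, 6.39, of all sites, and most filled circles lie right of the dashed line.

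Sites were unevenly placed along the RNA. Counted from the 5′ end, 412 of the 508 sites (81.1%, exact 95% interval 77.4 to 84.4) lay in the first 50% of their snoRNA. The interval covers counting error only and treats neighbouring sites as independent. With the length cut into 10 equal parts numbered from the 5′ end, part 1 held 100 sites from 34 members, and part 5 held 92 sites from 31. Part 6 held 71 sites, part 7 held 14, part 8 held 10, part 9 held 1 and part 10 held 0. Every site was in the first 50% of the RNA in 15 members (34.9%), against 70.4% of methylation guide targets and 64.7% of the 51 other snoRNA and scaRNA targets, a group that includes the methylation guides. Without the targets named snoRNA:Me or snoRNA:Or-CD it was 58.3% of 24 targets. That split is by name only, so C/D snoRNAs with other names, such as snoRNA:U14:30Ea, stayed among the 24. The H/ACA names snoRNA:Or-aca3 and snoRNA:Or-aca5 stayed there too. None of these shares was adjusted for length or for sites per gene. The medians were 141 nt and 11 sites in members, and 78 nt and 7 sites in methylation guide targets. Psi28S-1135f was the only member with more sites beyond that point than before it, with 3 of its 18 sites in the first 50%. No site came closer than 31 nt to the 3′ end of a member, and the median distance from the last site to that end was 66 nt. Methylation guide targets also had an empty 3′ part, with no site closer than 25 nt to that end. Whether the method can yield a site so near the 3′ end of a short RNA was not tested. The empty 3′ part is therefore not read as a lack of contact with FMRP.

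**Figure D2:**
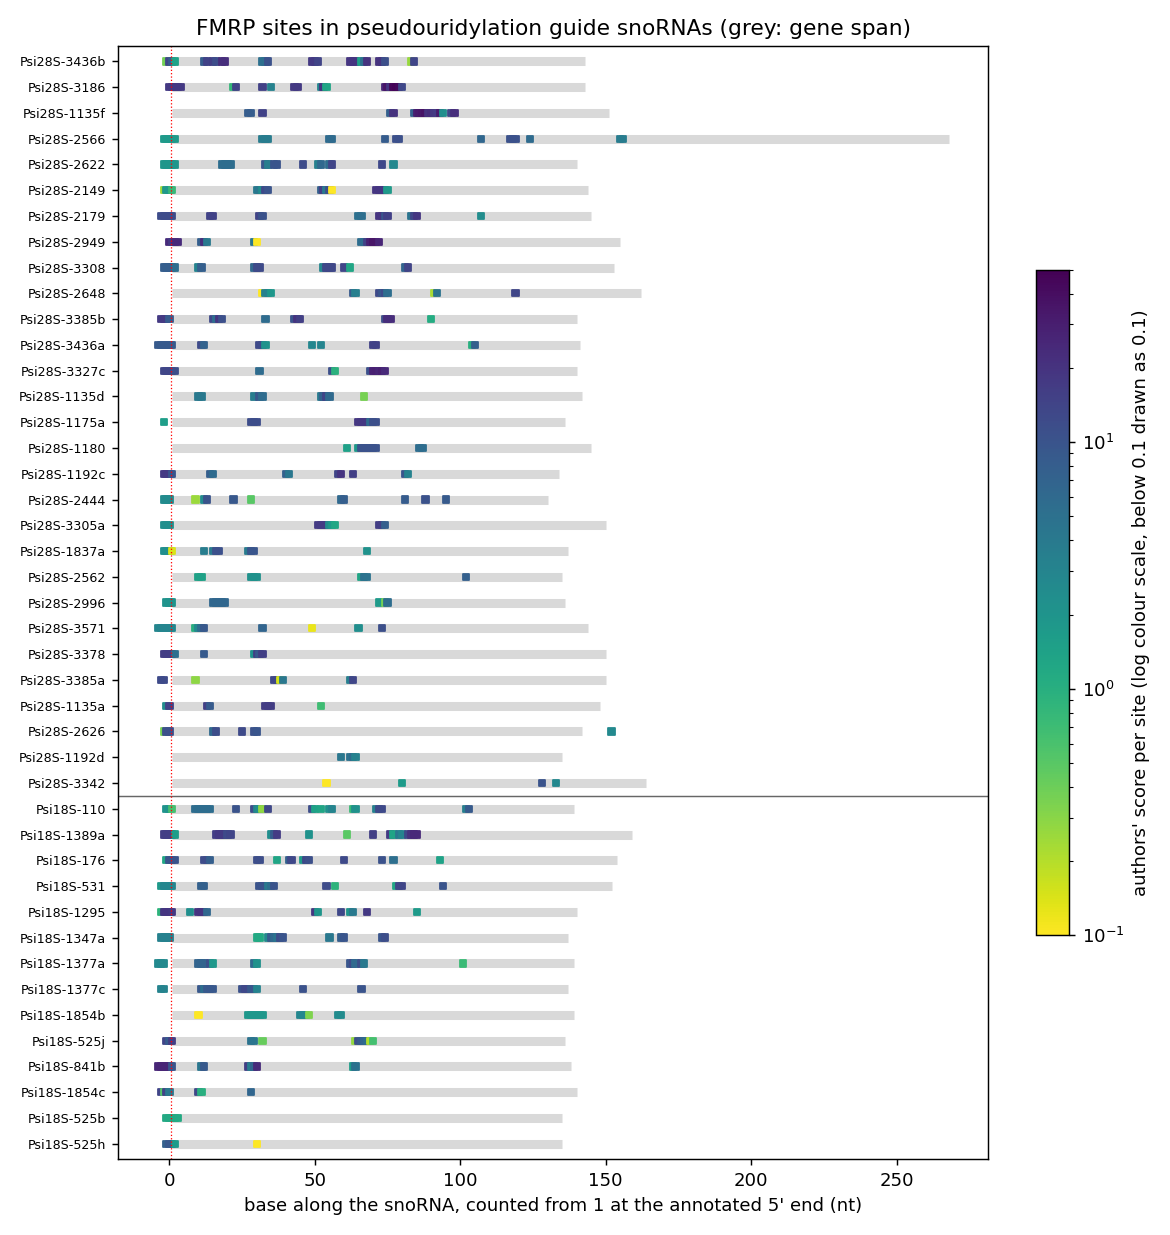
Position of every site in and up to 10 nt around each of the 43 snoRNAs, as bases from the annotated 5′ end (dotted line), with the gene span in grey and colour for the authors' score on a log scale. Guides of 28S rRNA are above the horizontal line and guides of 18S rRNA below it. Sites gather at the 5′ end and in the first part of the span, and the 3′ part of the grey bars is nearly empty.

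Particular bases recurred between members. Base 1, the annotated 5′ end, was a site in 24 of the 43 (55.8%), in members read from either strand. No member had a site on its last base. Base 2 was a site in 12 members. Farther in, at least 10 members shared a site at bases 11 to 12, at bases 28 to 32 and at bases 73 to 74. Bases 28 to 32 held 66 sites from 30 members, 19 of them 28S guides and 11 of them 18S guides. Bases 11 to 12 held 27 sites from 18 members, and bases 73 to 74 held 22 sites from 15. The median score was 11.9 at bases 73 to 74, 5.81 at bases 28 to 32, 7.41 at bases 11 to 12 and 8.39 at bases 1 to 2. These windows were chosen from the same sites, so they carry no test.

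Sites also ran just past the annotated 5′ end. Within the 10 nt before base 1, 35 of the 43 members had 101 sites, none farther than 5 nt out. The base next to base 1 was a site in 31 members (72.1%), the highest count of any position. The base 2 nt out was a site in 29 members, that 3 nt out in 25, that 4 nt out in 12 and that 5 nt out in 4. Farther upstream, from 11 to 60 nt out, 1 site was found, and the 10 nt after the 3′ end held 1 site in 1 member, Psi28S-2626. This last site lies 5 nt before base 1 of the neighbouring Psi18S-1377a and is already among the 101. On the outer side the sites thus ended within 5 nt of the annotated 5′ end. In Psi18S-841b, assigned to base 841 of 18S rRNA, the highest score of this group, 26.3, exceeded the highest inside the span, 23.9. The same held in Psi18S-1854c, with 14.5 before base 1 and 13.0 inside the span. The sites before base 1 are not part of the counts within the span. Whether sites on or just before base 1 mark a contact or only the end of the RNA was not tested.

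The site with the highest score tended to lie farther in than the 5′ end. Its median position was base 63, or 0.42 of the length. Neighbouring bases often had nearly equal scores, so the base named as highest can lead its neighbours by very little. In Psi28S-1180, for example, base 66 scored 10.373 and base 71, the highest, 10.375. The position of the highest-scoring site is thus exact only to within such a run. With the length cut into 5 equal parts, it fell in part 1 in 11 members, in part 2 in 10, in part 3 in 18 and in part 4 in 4, and in part 5 in 0. Along the 10 parts of the length, the median score of sites was 7.57 in part 1, 6.36 in parts 3 and 4, 9.59 in part 5 and 13.0 in part 6. The parts of the length with the highest median scores were thus not those nearest the 5′ end.

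Methylation guides on the target list, here the 27 targets whose current names begin with snoRNA:Me or snoRNA:Or-CD, were set beside the pseudouridylation guides. The snoRNA:Or-CD names give no rRNA base, so whether those C/D snoRNAs direct methylation is not known from the names. The snoRNA:Or-aca names, which also give no base, were not counted as pseudouridylation guides. Pseudouridylation guides had a median of 11 sites in 141 nt, and methylation guides 7 sites in 78 nt. Per 100 nt of gene the order turned, with 7.86 sites in pseudouridylation guides and 8.75 in methylation guides. The first 50% of the RNA held 81.1% of the sites of pseudouridylation guides and 93.7% (89.6 to 96.5) of those of methylation guides. These shares were not adjusted for the unlike lengths of the 2 classes, so they are not read as a difference in where FMRP binds. The highest-scoring site had its median at base 63 in pseudouridylation guides and at base 3 in methylation guides. The most shared position was the base before base 1 in pseudouridylation guides and base 2 in methylation guides, where 21 of 27 had a site. A site on base 1 was found in 55.8% of pseudouridylation guides and 74.1% of methylation guides. The last site came no closer to the 3′ end than 31 nt in pseudouridylation guides and 25 nt in methylation guides. These differences were not tested, because genes and sites are not replicates.

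**Figure D3:**
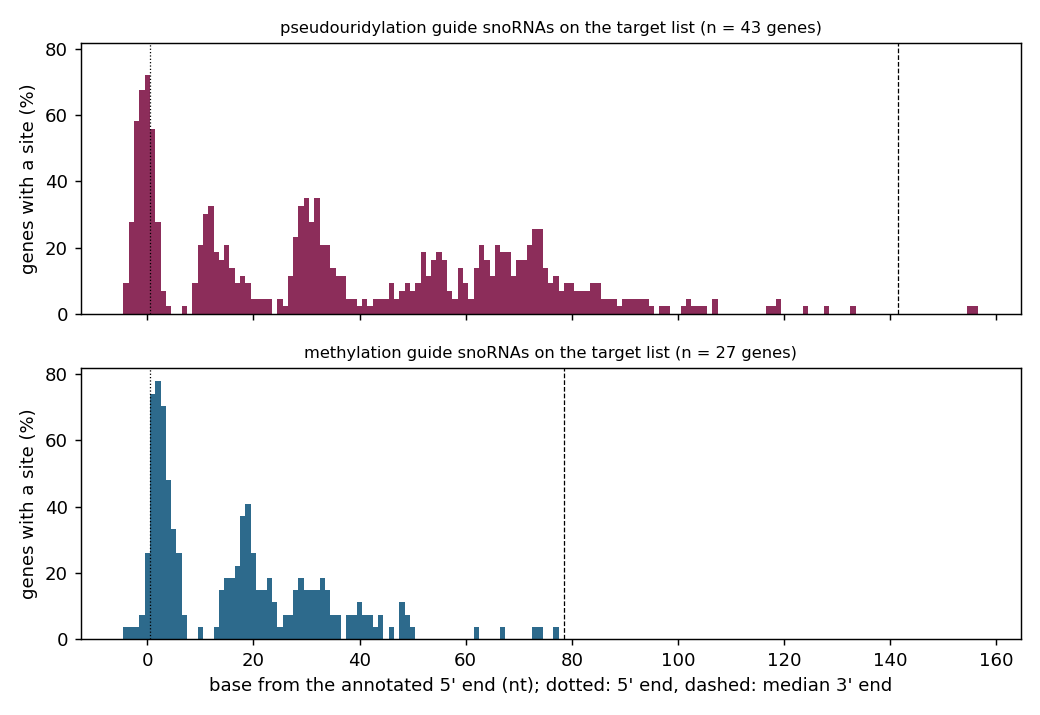
Share of genes with a site at each base, in percent, for the 43 pseudouridylation guides (top) and the 27 methylation guides (bottom), by distance from the annotated 5′ end (dotted line; the dashed line marks the median 3′ end). The top profile peaks on the base before base 1 at 72.1% and again near bases 12, 30 and 73, and the bottom profile peaks on base 2 at 77.8%.

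The members with most sites differed in pattern. Psi18S-110, in the gene of the splicing factor Sf3b3, had its sites between 831906 and 832008 on 3L, in runs at bases 9 to 14, 29 to 32 and 71 to 73 among others. Its highest score was 13.3 at base 34, and its median was 5.62. Psi28S-3436b, in the ribosomal protein gene RpL17, had sites between 6742408 and 6742491 on X and a median score of 14.5. Its sites fell in short runs of at most 3 bases spread from base 1 to base 84, with 22.2 as the highest score, at base 19. The median score thus differed between these RNAs although both had 25 sites.

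Psi18S-1389a, in dom, a chromatin remodelling ATPase gene, had sites between 21333934 and 21334018 on 2R with a median score of 14.9. Its runs at bases 16 to 21 and 82 to 85 reached scores of 17.9 and 24.4. Psi28S-3186 had sites between 5598078 and 5598157 on 3R, in kra, the gene of an eIF5-like translation regulator. Its run at bases 74 to 80 reached 46.8, and the next highest run of the same RNA, at bases 52 to 54, reached 20.6. Psi28S-1135f had sites between 17145437 and 17145508 on X, in the ribosomal protein gene RpS5a. It had none before base 27, and its run at bases 84 to 94 reached 37.1. In these RNAs the strongest run lay near or past the middle.

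Psi18S-176 had its sites between 23839972 and 23840064 on 2R, with a median score of 10.6 and a highest of 13.2, at base 47. It lay in no other gene of the table. Psi28S-2566, by far the longest span at 268 nt, had sites between 18896301 and 18896456 on 3L, and its highest score was 11.1. Its last site was at base 156, the farthest from the 5′ end of any member. Psi28S-2622 had sites between 1488906 and 1488982 on 3L, in stet, a rhomboid protease gene, with a median score of 5.53 and a highest of 14.0. All 3 had a site on base 1.

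High single scores also occurred in members with fewer sites. Psi28S-2949, in the snoRNA host gene Uhg4, had 15 sites with a highest score of 34.8 at base 70 and a run at bases 66 to 72. Psi28S-3327c, in RpS4, had 11 sites and reached 28.9 at base 73 within a run at bases 69 to 74. Psi28S-3385b, in kra, had 12 sites and reached 22.9 in the run at bases 74 to 76. These 28S guides had their top site between bases 70 and 76. By contrast, Psi18S-841b, in dom, reached 23.9 at base 30, and Psi18S-1295, in RpS20, reached 19.6 at base 12. Psi18S-841b had 9 sites and Psi18S-1295 had 13.

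The remaining members fell into a few layouts, named here to account for each of them. Psi28S-1180, Psi28S-1192d and Psi28S-3305a had no site within the span before base 50, with sites at bases 61 to 87, 59 to 64 and 51 to 74. Psi28S-3305a also had 3 sites just before base 1, with scores of at most 2.31. Psi28S-2626, Psi28S-3378 and Psi18S-1854c had none after base 32, with 5, 7 and 3 sites. Psi18S-1854b had 13 sites at bases 10 to 59 with low scores, none above 2.89.

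In others they reached far along the RNA. Psi28S-2179 had 15 sites up to base 107, Psi28S-3436a 12 up to base 105, Psi28S-2562 9 up to base 102 and Psi28S-2444 10 up to base 95. Psi28S-2648, in RpL36A, had 13 sites from base 32 to base 119 with its highest score, 13.7, on the last of them. Psi28S-3342 had 4 single sites from base 54 to base 133 and its highest score, 10.3, at base 128. The sites of Psi18S-531, Psi18S-1347a, Psi28S-1175a, Psi28S-1192c, Psi28S-1837a, Psi28S-2149, Psi28S-2996, Psi28S-3308, Psi28S-3385a and Psi28S-3571 ended between base 63 and base 94. Of all 43, 8 members had sites past base 100, 17 sites in all.

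By guided rRNA, 29 members were assigned to 28S rRNA and 14 to 18S rRNA. Guides of 28S had a median of 10 sites (range 4 to 25), and guides of 18S had 13 (3 to 25). Their ranges overlapped almost fully, and the order of the medians turned with sites at or above the median score only (ratio of 28S to 18S medians 1.05, against 0.769 with all sites). The median of the members' median scores was 8.70 in 28S guides and 6.73 in 18S guides, with ranges of 2.16 to 19.7 and of 1.19 to 14.9. The share of sites in the first 50% of the RNA was 77.6% (72.8 to 82.0) in 28S guides and 87.9% (82.0 to 92.3) in 18S guides. These intervals treat neighbouring sites as independent, and a single 28S guide, Psi28S-1135f, had only 3 of its 18 sites there. At least 1 site beyond that point was found in 20 of the 29 guides of 28S and in 8 of the 14 guides of 18S.

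The gene table holds 106 pseudouridylation guide genes, so the 43 on the target list were 40.6% of the class. On the target list were 31.3% of the 163 other snoRNA and scaRNA genes, 30.0% of the 90 methylation guides among them and 10.2% of all 17872 genes of the table. As the list chose the members, nothing is read from these shares. Among 28S guides 29 of 60 (48.3%) were on the list, and among 18S guides 14 of 46 (30.4%). Off the list, 1 of 63 guide genes (1.59%) had a site in its span, against 3.57% of the 112 other snoRNA and scaRNA genes off the list. It was Psi28S-3091b, with 3 sites on 3R, a median score of 1.21 and a highest of 6.52. Members on the list had at least 3 sites, so this gene lay beside the lowest of them. A gene without a listed site may still have been contacted, and the abundance of each snoRNA was not used here.

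The members covered 34 of the 51 rRNA bases that the guide genes name, 24 in 28S and 10 in 18S. Where several genes name a base, 23 of 74 genes were on the list (31.1%), and where a single gene does, 20 of 32 (62.5%). Of the 19 bases with several genes, all genes were on the list for 2, some for 12 and none for 5. The bases with none were Psi18S-640 with 7 genes, Psi28S-3316 with 5, Psi28S-3405 with 4, and Psi28S-2442 and Psi28S-3091 with 2 each. Close copies can share reads, and how reads with several matches were treated is not given in the sources used here, so counts of lettered copies are uncertain.

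**Figure D4:**
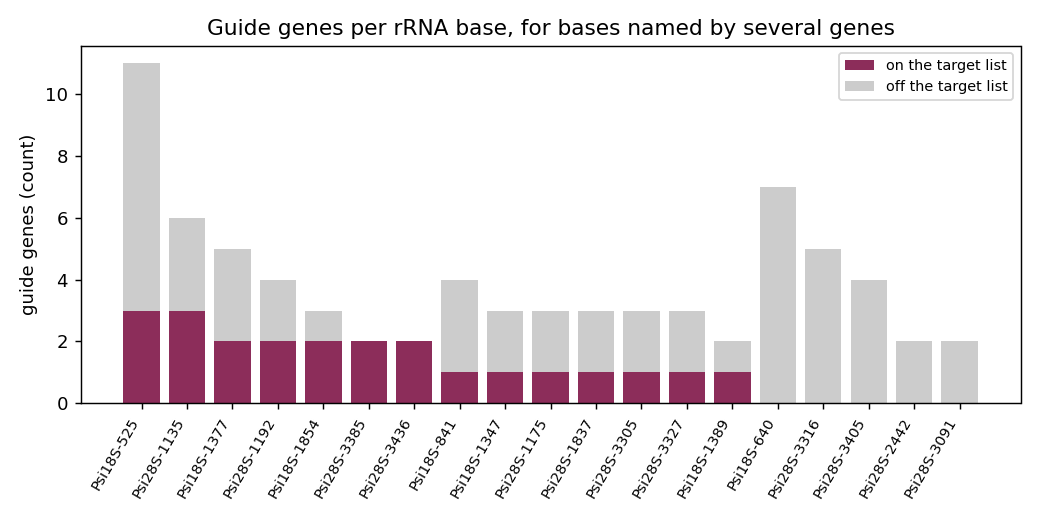
Number of guide genes on (dark) and off (grey) the target list for each rRNA base that several genes name. All copies were on the list for Psi28S-3385 and Psi28S-3436, and none for the last 5 bases.

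Copies assigned to the same base differed in their sites. The largest group is Psi18S-525, with 11 genes of which 3 were on the list. Psi18S-525j had 11 sites and a highest score of 16.3, at base 1. Psi18S-525h had 3 sites and a highest score of 9.25, also at base 1, and Psi18S-525b had 3 sites, all at bases 1 to 3, with a highest score of 1.19. A site at the 5′ end was thus shared by all 3, and the run at bases 64 to 70 was found in Psi18S-525j.

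Of the 6 Psi28S-1135 genes, 3 were on the list. Psi28S-1135f had 18 sites, Psi28S-1135d 10 and Psi28S-1135a 6. Psi28S-1135a and Psi28S-1135f shared no base, and each shared 1 with Psi28S-1135d. Bases were counted from each annotated 5′ end, and the copies were not aligned. Their lengths differ, at 148 nt in Psi28S-1135a, 142 nt in Psi28S-1135d and 151 nt in Psi28S-1135f. Matching sites can thus count as not shared, here and in the other pairs. Psi28S-1135a had its highest score, 16.5, at base 35, Psi28S-1135d had 14.4 at base 54, and Psi28S-1135f had 37.1 at base 88. In contrast, Psi18S-1377a and Psi18S-1377c, in RpS7, had 13 sites each and shared 7 of them (53.8% of each). Both had runs starting at base 10 or 11 and sites at base 66. Among the 11 pairs of listed copies, over 7 rRNA bases, 2 pairs shared no base and 7 was the highest number shared.

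Nearly all members lay inside another gene. A host was found for 41 of 43, and the 2 without one were Psi18S-176 and Psi28S-3342. The 22 hosts comprised 20 protein-coding genes and 2 lncRNA genes, and 10 of them, with 22 members, encode ribosomal proteins. Those 10 held 38 guide genes, on and off the list. RpS5a held 7 members, RpS7 and kra 4 each, and dom and Arpc2, a subunit of the actin-nucleating Arp2/3 complex, 3 each. In 12 hosts some guide genes were on the list and others were not: these hosts held 85 guide genes, of which 30 were members. Arpc2 held 17 guide genes with 3 members, and RpS5a held 14 with 7. Guide genes within a host can come from the same primary transcript, so members within a host are not independent.

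Sites in the surroundings lay mostly at the 5′ end. Within 200 nt of either end, outside other small RNA genes, 37 of the 43 members had further sites on their strand, 124 upstream and 64 downstream. Of those upstream, 101 were the sites within 10 nt of base 1. Sites farther than 10 nt from both ends were found around 17 members, 23 upstream of 8 members and 63 downstream. Only the exact spans of other small RNA genes were left out, so sites just before base 1 of a neighbouring guide can count here again. For example, the 4 downstream sites of Psi28S-3385a are the 4 before base 1 of Psi28S-3385b. These counts are thus not all sites of the host gene. Downstream sites at any distance up to 200 nt were found for 12 members.

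Of the 22 hosts, 21 were themselves on the target list. In 8 of them every site in the span lay in a small RNA gene or within 10 nt of one, and 7 of these 8 were on the list. They were Arpc2 with 23 sites, RpS20 with 26, CG3902 with 20, RpL36A with 13, RpL5 with 11, RpS16 with 12 and Uhg4 with 61. The eighth, stet, had 20 sites and was not on the list. The other 14 hosts had sites elsewhere too, from 8 in RpL11 and lncRNA:CR42491 to 141 in pAbp, the poly(A)-binding protein gene. Sites within a snoRNA cannot be told apart from sites in the intron of its host's precursor.

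Protein genes of the guide particles carried no sites. For the H/ACA particle, Nop60B, NHP2, Gar1 and Nop10, which encode its core proteins, and CG10341 and CG10055 had 0 sites and were not targets (0 of 6). The same held for Fib, Nop56, nop5 and hoip of the C/D particle (0 of 4) and for the synthase genes RluA-1 and RluA-2 (0 of 2), where 15.0% of all genes of the table had at least 1 site.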

How the data were processed

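The authors deposited a list of single-base sites with a score and a list of target gene names; the sources used here do not give the score's unit, the site caller, the genome build, the pooling of libraries or the rule for targets. Per the submitters' processing notes, DESeq2, STAR 2.7.3a, SAMtools 1.10, cutadapt 2.9 and UMI-tools were among the tools. Spans came from a RefSeq gene table of Drosophila Release 6, without strand or sequence. Of the 1829 target names, 1818 matched a symbol or the synonym of a single gene, and 1814 of these held a site; the 11 others were not used. Sites were counted from 1, assigned by span, and placed along the RNA on the strand of the sites. Intervals are exact Clopper-Pearson intervals at 95% (scipy 1.17.1). No count model or significance test was run. Planted sites in 267 snoRNA genes that overlap no other were all recovered in simulated data. They were planted on 1 strand per gene and read back by the same rules, so this checks the code only. Genes given in full were the 8 with most sites, the 5 with the highest score among the others, and the listed copies of 3 families. Alternatives were other spans, strands, score minimums and weights. A search for sequence boxes was not run. The members and lists were chosen with earlier results of these data known.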

Additional observations from a re-analysis of the deposited data

How the results depend on the processing

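Of 37 alternative values, 27 kept their order and stayed within 1.5 times the reported count, ratio or median score, or within the interval of the reported share. A further 7, with sites on both strands, could not differ, since each snoRNA had sites on a single strand. Spans widened by 10 nt gave 610 sites, a median of 14 and a ratio of pseudouridylation to methylation guides of 2. The total of 508 sites became 293 with sites at or above the upper quartile of scores and 223 with runs counted as 1, and the median per snoRNA became 6 and 5. The share of sites in the first 50% of the RNA was 73.1% when weighted by score, and 95.3% of members had their median site there. It was 97.5% in methylation guides with sites at or above the upper quartile. The median score was 13.7 with the highest site per snoRNA, which is higher by construction. It was 10.2 with sites at or above the median of all sites and 11.4 at or above the upper quartile. These also rise by construction, yet count among the 27. So does the share of sites farther than 70 nt from the 3′ end, 82.9%, which is nearly the same measure as the first 50%. The 27 are thus not all independent checks. The ratio of median sites between pseudouridylation and methylation guides, 1.57, turned to 0.898 per 100 nt, since pseudouridylation guides are longer. That of 28S to 18S guides, 0.769, turned to 1.05 with sites at or above the median score, and the cause was not tested. Leaving out Psi28S-2566, chosen after seeing the data, gave 80.9% of sites in the first 50%. No paired analysis was possible because the lists hold no values per library, and no library could be left out. Depth limits which snoRNAs can show a site, and it is unknown.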

Other observations

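Scores on neighbouring bases were often equal in snoRNAs. Of 285 pairs of sites on adjacent bases within a member, 98 (34.4%) had scores within 1% of each other, against 2167 of 29847 such pairs over all sites (7.26%). The share was 16.4% of 152 pairs in methylation guide targets and 32.9% of 167 pairs in the 24 other snoRNA and scaRNA targets.

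The number of sites and the median score of a member had a Spearman correlation of 0.46 over the 43 members, and the number of sites and the length one of 0.38. The members share libraries, and many share a host, so these are descriptions.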
